A study of Homo sapiens with 33 samples.

Results

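Granzymes, perforin and the neutrophil-type granule serine proteases were examined in human acute lymphoblastic leukaemia (ALL) cell lines that received a glucocorticoid or a compound that activates Wnt signalling. The set had 10 genes of the 62446 gene rows, taken by symbol: GZMA, GZMB, GZMH, GZMK, GZMM, PRF1, CTSG, ELANE, PRTN3 and AZU1. The family was chosen by measured values of these libraries: GZMA had the largest increase in Nalm6 cells given CHIR-99021, and CTSG was among the largest decreases under prednisolone in Nalm6 and in CEM. For the 10 genes, the values of those 3 contrasts are therefore a description and carry no test. Other comparisons with the first untreated Nalm6 set reuse the libraries by which GZMA and CTSG were chosen, so no p is given for these 2 genes there and their calls in those counts are not independent of the choice. Untreated CEM was likewise among the groups by which CTSG was chosen, so CTSG carries no p in comparisons with it. Its calls there are not independent of the choice either. Of the 10, 5 (GZMA, GZMK, GZMM, CTSG and PRF1) reached 1 CPM (a counts-per-million scale) in at least 3 of the 33 libraries, and the other 5 reached it in none.

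There were 11 groups of 3 libraries, and each drug was given for 24 h. Nalm6, a B-cell precursor ALL line, was untreated, given 0.5 µM CHIR-99021 (a GSK3 inhibitor used as a Wnt pathway agonist) or given 5 µM prednisolone. A second untreated Nalm6 set stood beside Nalm6 given 100 nM dexamethasone, a more potent synthetic glucocorticoid than prednisolone. TLE1 KO, a Nalm6 derivative edited at TLE1 (the gene of a transcriptional co-repressor), were untreated, given 5 µM prednisolone or given 100 nM dexamethasone. The labels do not say whether the knockout was 1 clone or a pool. CEM, a T-cell ALL line, was untreated, given 2 µM CHIR-99021 or given 10 µM prednisolone. Nalm6 and TLE1 KO cells, treated and untreated alike, grew in medium with charcoal-stripped serum, which is depleted of steroids. Groups follow the sample titles, because the treatment protocol in the labels names other drugs for the parental and knockout cells than the titles do. The labels do not say how the 2 untreated Nalm6 sets were run relative to each other, so any difference in handling between them cannot be told apart from the other differences between the sets.

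Cytotoxic T cells and natural killer (NK) cells store granzymes in secretory granules together with perforin, which forms pores through which granzymes reach the target cell. Granzymes A and K are tryptases, granzyme B cleaves after aspartate, granzyme H is chymotrypsin-like and granzyme M cleaves after methionine or leucine. Cathepsin G, neutrophil elastase, proteinase 3 and azurocidin (a member without protease activity) belong to the same protease family but are stored in azurophil granules of neutrophil precursors. Dipeptidyl peptidase I, encoded by CTSC, removes the propeptide of these enzymes, serglycin (SRGN) packs them, and serpins such as SERPINB9 and SERPINB1 inhibit them.

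Several of the genes lie in small clusters. GZMK and GZMA are adjacent on chromosome 5. CTSG, GZMH and GZMB stand side by side on chromosome 14, and AZU1, PRTN3 and ELANE do so on chromosome 19. The 250 bases before the start of GZMA and CTSG are shown because, of the 10 genes, they had the largest changes in parental Nalm6 under CHIR-99021 and under glucocorticoids respectively. They were read from RefSeq (GRCh38.p14), in which 7 of the 10 genes had an entry; GZMK, GZMM and ELANE were not among them. Capitals mark a match to a searched motif.

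GZMA, chr5:55102396-55102645, plus strand: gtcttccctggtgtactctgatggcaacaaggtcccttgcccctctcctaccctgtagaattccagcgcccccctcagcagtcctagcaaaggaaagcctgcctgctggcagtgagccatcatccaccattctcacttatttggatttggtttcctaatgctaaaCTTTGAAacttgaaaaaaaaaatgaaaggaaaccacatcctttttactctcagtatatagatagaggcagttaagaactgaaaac

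CTSG, chr14:24576251-24576500, minus strand: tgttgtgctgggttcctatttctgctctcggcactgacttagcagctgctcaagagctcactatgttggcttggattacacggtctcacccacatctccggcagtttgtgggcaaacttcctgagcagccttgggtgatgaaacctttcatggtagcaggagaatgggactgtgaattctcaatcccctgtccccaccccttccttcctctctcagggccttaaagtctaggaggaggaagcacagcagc

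The motifs were the TCF/LEF letters CTTTGAT and CTTTGAA, bound by the factors at the end of the Wnt pathway, the single glucocorticoid receptor arm TGTTCT and the full element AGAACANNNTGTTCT, each searched on both strands. GZMA held CTTTGAA once, from 85 to 79 bases before its start. Of 35116 promoter windows of this length, 3.80% held that motif and 2.26% held CTTTGAT. The bases just after the GZMA start were not found in a GENCODE v29 transcript of the gene, so the distance holds for the RefSeq start only. Those just after the CTSG start were found. CTSG held none of the 4. The single arm was in 12.4% of windows and the full element in 0.00285%. A match is a string of letters, not a measured site.

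Depth was 25292579 to 61930057 gene counts in a library, so that a gene at 0 could be present at up to 0.0484 to 0.119 CPM (3 counts). These limits cover counting error only. The 9 B-precursor markers summed to 2400 to 3090 CPM in the 24 Nalm6 and TLE1 KO libraries and to 140 to 219 CPM in CEM, and the 9 T-cell markers summed to 25.1 to 49.8 CPM and to 1940 to 2120 CPM respectively. The 9 neutrophil and myeloid markers summed to 1.27 to 8.70 CPM over all libraries. In a group, 0 to 3 of the 9 had a mean of at least 1 CPM, and S100A8 was at 0 in the 8 Nalm6 and TLE1 KO groups. Among 6 mast cell markers MS4A2 was at 0 in all 11 groups, but KIT, which other blood cells also express, was at 13.0 ± 0.526 CPM in the first untreated Nalm6 set and 30.7 ± 3.01 CPM in untreated TLE1 KO. TLE1 itself was still transcribed in the knockout, at 24.5 ± 0.783 CPM (SD, n = 3) against 32.0 ± 1.89 CPM in the first untreated Nalm6 set (log2 fold change -0.36, edgeR quasi-likelihood adjusted p = 0.002), and a count over the whole gene does not show whether the protein was lost. The series text speaks of 3 independent experiments for Nalm6 and TLE1 KO and does not do so for CEM. In bulk RNA, fewer expressing cells and less RNA per cell cannot be told apart.

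Across the 11 groups, each of the 5 measured genes had its own order of levels. GZMM and PRF1 were T-line genes: GZMM reached 12.4 to 18.8 CPM in the 9 CEM libraries and at most 0.277 CPM in the others. GZMK was the reverse, with 0 to 2 counts in any CEM library and 0.278 to 17.5 CPM elsewhere. CTSG was highest in untreated CEM (14.8 ± 1.23 CPM) and lowest in TLE1 KO, where no library had more than 2 counts. GZMA was highest in CEM given CHIR-99021 (9.06 ± 0.187 CPM) and in the second untreated Nalm6 set (8.78 ± 0.623 CPM), whose libraries overlapped, and lowest in TLE1 KO. In that order, libraries of neighbouring groups overlapped in 5 of 10 places for GZMA, 4 for GZMK, 2 for CTSG and 8 each for GZMM and PRF1.

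**Figure D1:**
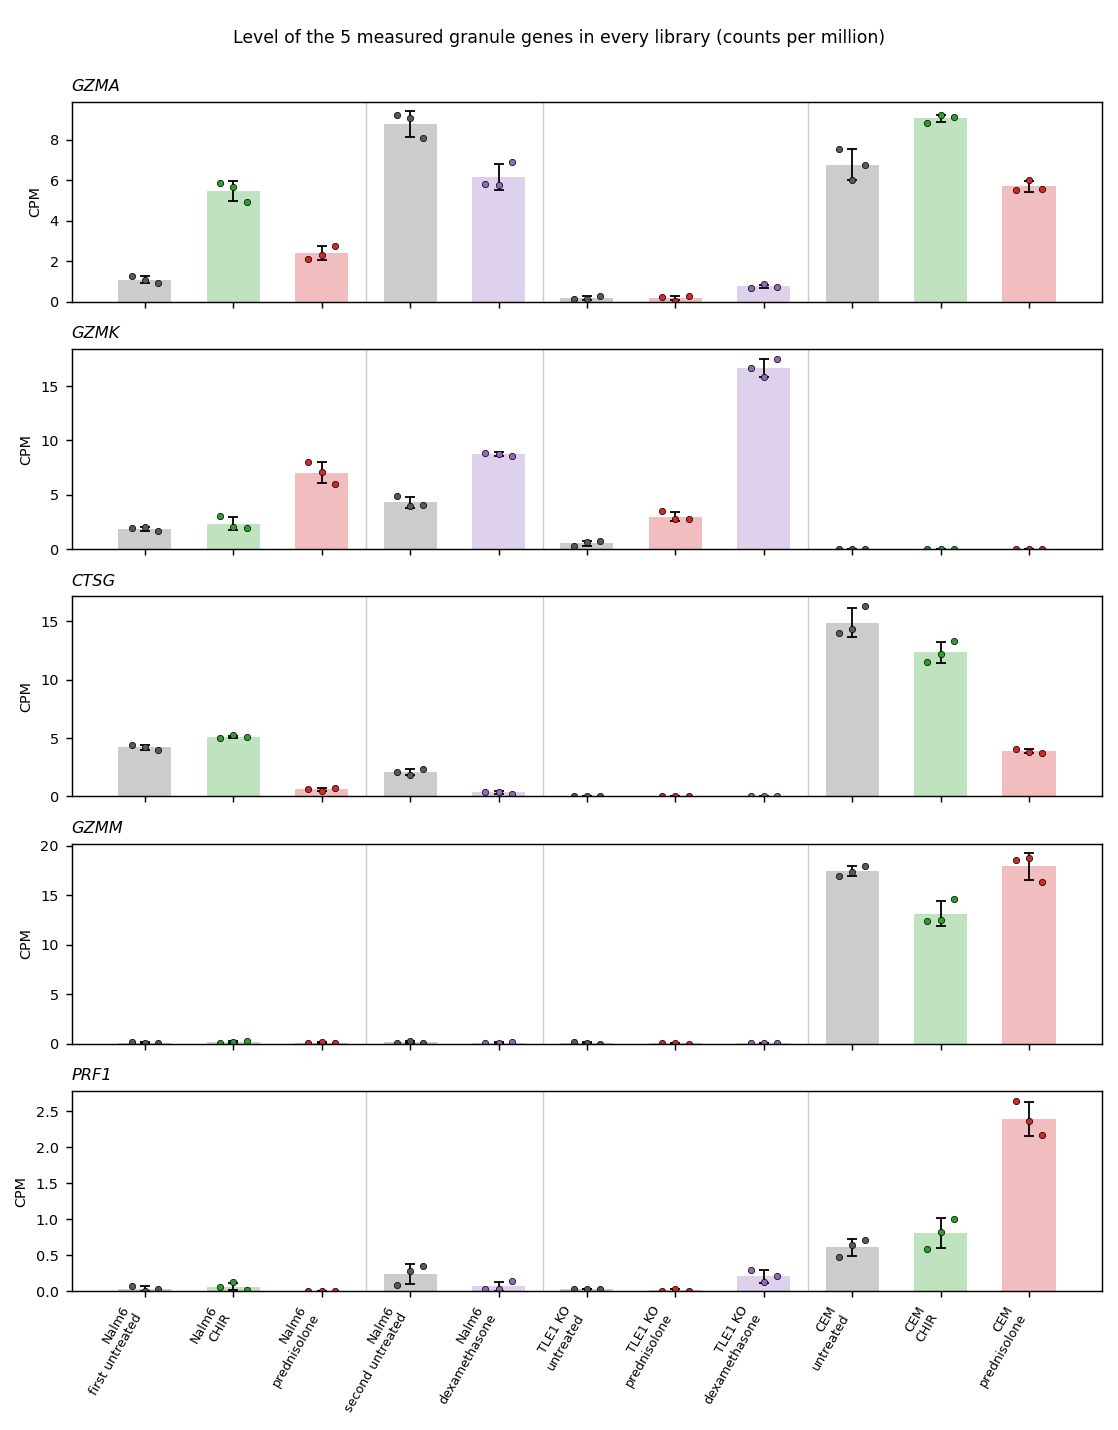
Level of 5 granule genes in CPM (vertical axis, linear, from 0) in the 11 groups (horizontal axis). Points are the 3 libraries of a group, bars their mean and whiskers the SD; GZMM sits above 12 CPM in CEM alone, GZMK near 0 in CEM alone, and the second untreated Nalm6 set (8.78 CPM) stands above the first (1.09 CPM) for GZMA.

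The other 5 genes were at the limit of detection. GZMB, which encodes the best known cytotoxic granzyme, had at most 2 counts in any library and GZMH at most 1. AZU1 had 0 to 6 counts and ELANE 0 to 3. PRTN3 had 0 or 1 count in 32 libraries and 30 counts (0.706 CPM) in replicate 2 of CEM given CHIR-99021. Cytotoxic granules in mature lymphocytes pair granzyme B with perforin, and in CEM perforin transcripts were present while GZMB had 0 counts in every library.

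GZMA encodes granzyme A. In the first untreated Nalm6 set it read 1.28, 1.06 and 0.940 CPM, and with CHIR-99021 it read 5.85, 5.65 and 4.92 CPM. All 3 treated libraries lay above all 3 untreated ones, a 4.97-fold difference (log2 2.31 ± 0.13 SE). Of the 10 genes, 3 passed the filter on low counts in this contrast and 1, GZMA, was called, beside 7.88% of all genes tested; as this contrast chose the gene, nothing is read from that count. GZMK (log2 0.30 ± 0.17) and CTSG (0.28 ± 0.08) differed less.

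The second untreated Nalm6 set read 9.22, 9.05 and 8.07 CPM for GZMA, above every CHIR-99021 library. The difference between the 2 untreated sets, second minus first, was 3.06 ± 0.12 on the log2 scale, larger than the CHIR-99021 difference of 2.31. All 3 genes tested between the sets were called, with GZMA and GZMK higher and CTSG lower in the second set, where 50.2% of all genes were called. Beside these values, the 9 T-cell markers summed to 35.4 to 37.8 CPM in the first set and 37.9 to 41.1 CPM in the second, where CD3D, CD3E and CD7 had 4, 8 and 2 counts in replicate 1 and 0 in replicates 2 and 3. The 8 NK and cytotoxic markers summed to 2.77 to 3.79 and 4.25 to 5.65 CPM, with both of the 2 tested higher in the second set (median log2 0.91). The neutrophil and myeloid markers summed to 3.95 to 5.02 and 8.30 to 8.70 CPM, with 3 of 4 tested higher. The part of these markers in the differences between the sets was not tested.

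The sign of the GZMA change under each drug in parental Nalm6 depended on which untreated set was the reference. Set against the second untreated set, the CHIR-99021 libraries were lower in GZMA, at log2 -0.75 ± 0.10. Prednisolone read 2.14, 2.33 and 2.78 CPM, which is above the first untreated set (log2 1.13 ± 0.17) and below the second (-1.95 ± 0.12). Dexamethasone read 5.81, 5.78 and 6.88 CPM, a log2 difference of -0.55 ± 0.09 against its own untreated set (edgeR adjusted p = 1.61e-04) and of 2.53 ± 0.13 against the first. The alternative reference was added after the data were seen.

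**Figure D2:**
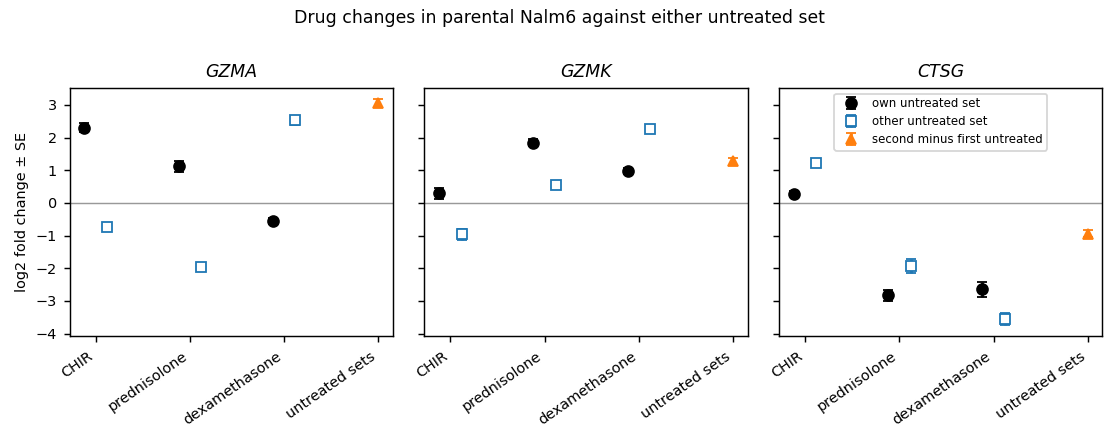
Log2 fold change ± SE (vertical axis) of GZMA, GZMK and CTSG in parental Nalm6 for each drug (horizontal axis), against the untreated set that the titles pair with it (filled circles) and against the other untreated set (open squares), with the difference of the 2 untreated sets (triangles). For GZMA every drug changes sign with the reference; for CTSG both glucocorticoids stay between -3.56 and -1.92.

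GZMK encodes granzyme K and was higher with both glucocorticoids in B-lineage cells. It read 1.95, 2.02 and 1.67 CPM in the first untreated Nalm6 set and 7.98, 7.08 and 6.02 CPM with prednisolone, with no overlap (log2 1.85 ± 0.12). In the prednisolone contrast all 3 genes tested were called, beside 54.8% of all genes, and nothing is read from that count. It read 4.86, 4.0 and 4.03 CPM in the second untreated set and 8.88, 8.76 and 8.57 CPM with dexamethasone, where it rose by 0.97 ± 0.09 (edgeR adjusted p = 5.31e-07). All 3 genes tested under dexamethasone were called, beside 60.5% of all genes. CTSG passed the filter on low counts there only with the untreated libraries, so nothing is read from that count. The size of the GZMK change, not its sign, moved with the reference: prednisolone gave 0.56 ± 0.12 against the second set and dexamethasone 2.26 ± 0.09 against the first. The 2 untreated sets themselves differed by 1.27 ± 0.12 (adjusted p = 6.73e-06).

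In TLE1 KO cells GZMK read 0.278, 0.642 and 0.738 CPM untreated and 3.52, 2.74 and 2.74 CPM with prednisolone. It rose by 2.38 ± 0.27 on the log2 scale and was the only one of the 10 genes to pass the filter there, where 41.7% of all genes were called. The untreated libraries alone would not pass it, so no p is given and nothing is read from that call. The prednisolone change in TLE1 KO exceeded that in parental cells by 0.55 ± 0.31, a difference for which no test is given because it contains the parental prednisolone contrast (none of 3 genes tested was called, beside 3.48% of all genes). With dexamethasone TLE1 KO read 16.7, 15.8 and 17.5 CPM, the highest GZMK level of the series. Those libraries exceeded dexamethasone-treated parental cells by 0.95 ± 0.07 (edgeR adjusted p = 9.63e-11). TLE1 KO has 1 untreated set; with the difference between the parental untreated sets taken off, which assumes the same difference in the knockout, the dexamethasone change of GZMK was 3.63 ± 0.25 (adjusted p = 1.82e-08). Of 3 genes tested in that contrast 2 were called, beside 40.0% of all genes. Prednisolone and dexamethasone were used at different doses, so the values stand side by side only.

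CTSG encodes cathepsin G, and its transcripts were fewer with glucocorticoid in both lines that expressed it. In parental Nalm6 it read 4.38, 4.20 and 3.99 CPM untreated and 0.645, 0.455 and 0.700 CPM with prednisolone, a 7.13-fold lower level with no overlap (log2 -2.83 ± 0.16). It read 2.07, 1.85 and 2.36 CPM in the second untreated set and 0.393, 0.418 and 0.214 CPM with dexamethasone. There it fell by 2.64 on the log2 scale (SE 0.23). The dexamethasone libraries alone would not pass the filter on low counts, so no p is given. Against the other untreated set the values were -1.92 ± 0.21 for prednisolone and -3.56 ± 0.18 for dexamethasone. The sets differed by -0.94 ± 0.11, less than either drug difference. In CEM it read 14.0, 14.3 and 16.3 CPM untreated and 4.10, 3.84 and 3.73 CPM with prednisolone (log2 -1.95 ± 0.08). The CEM decrease was smaller than the Nalm6 decrease by 0.89 ± 0.19 on the log2 scale, in a contrast that called 3 of 5 genes tested and 26.9% of all genes, from which nothing is read for these genes; the doses were 10 µM and 5 µM, so the lines were not compared at 1 dose.

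MPO, which encodes myeloperoxidase of the azurophil granule, is not one of the 10 genes but moved with CTSG in Nalm6. It fell from 1.04 ± 0.0245 to 0.141 ± 0.0349 CPM with prednisolone (log2 -2.95). With dexamethasone it went from 1.90 ± 0.242 to 0.166 ± 0.0366 CPM (log2 -3.51). MPO passed the filter on low counts only through the untreated libraries, so no p is given for either change. Unlike CTSG it was higher in the second untreated set (log2 0.92, edgeR adjusted p = 3.25e-04) and was at 0 to 2 counts in every CEM library. The 9 neutrophil and myeloid markers, MPO among them, summed to 3.95 to 5.02 CPM in the first untreated set, 1.99 to 2.39 with prednisolone, 8.30 to 8.70 in the second untreated set and 1.85 to 2.15 with dexamethasone. Of the 9, 3 had a mean of at least 1 CPM in each untreated set and 1 did with each glucocorticoid. S100A8, which is abundant in mature myeloid cells, and FCN1 were at 0 in all 4 of these groups. The part of that marker sum in the CTSG difference was not tested.

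Untreated TLE1 KO cells were lower than untreated parental Nalm6 in all 3 of the granule genes that the latter expressed. There 3 of the 10 genes were tested and all 3 were lower, where 27.1% of all genes were called and 11.8% were lower. GZMA and CTSG passed the filter on low counts only through the parental libraries, so nothing is read from that count. The same holds for these genes against the second untreated set, and no p is given for them. GZMA read 0.139, 0.153 and 0.289 CPM (log2 -2.45 ± 0.30) and GZMK was lower too (log2 -1.72 ± 0.25, edgeR adjusted p = 0.00103). Against the second untreated set the differences were -5.50 ± 0.20 for GZMA and -2.97 ± 0.24 for GZMK. CTSG had 2, 2 and 1 counts against 271, 206 and 229 in parental cells, a 77.7-fold lower level (95% exact interval 33.1 to 240, counting error only). It was 38.8-fold lower than in the second set (16.4 to 121). MPO was lower too, at 0.106 ± 0.0426 CPM (2, 5 and 3 counts, log2 -3.21), and it also passed the filter only through the parental libraries. With 1 knockout culture line named in the labels, a difference between cultures and one due to TLE1 cannot be told apart.

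With either glucocorticoid CTSG had 0 counts in all 6 TLE1 KO libraries. Measured against the limit of 3 counts per library, this is at least 6.41-fold lower than prednisolone-treated and at least 3.08-fold lower than dexamethasone-treated parental cells. From 1 or 2 counts untreated, a change with drug in the knockout itself was not detectable at this depth. GZMA in TLE1 KO read 0.217, 0.0660 and 0.301 CPM with prednisolone, overlapping the untreated libraries, and 0.705, 0.870 and 0.717 CPM with dexamethasone, above them. Of the 2 genes tested between dexamethasone-treated knockout and parental cells both were called, GZMK higher and GZMA lower (-3.00 ± 0.16, edgeR adjusted p = 1.00e-12), beside 56.6% of all genes. With the difference of the untreated sets taken off, the dexamethasone change of GZMA in the knockout was -1.10 ± 0.40, a contrast that contains the first untreated set; leaving out single libraries gave -1.27 to -0.67 and ended the call in 8 of 12 cases. Beside these values, the NK and cytotoxic markers summed to 4.85 to 5.02 CPM in dexamethasone-treated and 2.17 to 2.44 CPM in untreated TLE1 KO.

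CEM transcribed GZMM, GZMA, CTSG and some PRF1, without GZMK or GZMB. Per kilobase of exon, the scale on which genes can be compared, untreated CEM held 18.5 ± 0.509 CPM of GZMM, 10.8 ± 0.899 of CTSG, 7.57 ± 0.844 of GZMA and 0.240 ± 0.0469 of PRF1. The first untreated Nalm6 set held 3.05 ± 0.141 CPM per kilobase of CTSG, 1.22 ± 0.190 of GZMA and 1.20 ± 0.118 of GZMK, and the second 9.82 ± 0.697 of GZMA, 2.74 ± 0.312 of GZMK and 1.52 ± 0.188 of CTSG. The most abundant of the 10 genes in Nalm6 was thus CTSG in one untreated set and GZMA in the other.

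Between untreated CEM and the first untreated Nalm6 set, 5 of the 10 genes were tested and all 5 called, beside 82.8% of all genes. GZMK passed the filter on low counts only through Nalm6, and GZMM and PRF1 only through CEM. GZMA and CTSG were chosen by libraries of these groups, so nothing is read from that count. GZMM (log2 7.45), GZMA (2.67) and CTSG (1.87) were higher in CEM, PRF1 was 16.8-fold higher (95% exact interval 7.35 to 47.1) and GZMK was 236-fold lower (42.0 to 9340) from 1 count in 3 libraries. Against the second untreated set again 5 of 5 genes tested were called, beside 77.5% of all genes. The same 3 genes passed the filter through 1 line only, and nothing is read from that count either. GZMA changed side there and was lower in CEM, at -0.42 ± 0.10 (edgeR adjusted p = 0.00176). CTSG (2.78) and GZMM (6.87) stayed higher and GZMK stayed lower, 547-fold. PRF1 stayed higher by a smaller margin, 2.59-fold (log2 1.37 ± 0.38).

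In CEM the CHIR-99021 differences were small. GZMA read 7.54, 6.03 and 6.74 CPM untreated and 8.85, 9.22 and 9.10 CPM with the drug, and rose by 0.44 ± 0.09 on the log2 scale (edgeR adjusted p = 0.00678). GZMM read 17.0, 17.4 and 18.0 CPM untreated and 12.4, 12.5 and 14.6 CPM treated, and fell by 0.39 (SE 0.07, adjusted p = 0.0043). Those 2 were called of the 4 tested, beside 10.8% of all genes. PRF1 (0.41 ± 0.25, adjusted p = 0.352) did not pass. CTSG differed by -0.25 ± 0.08, without a p because untreated CEM was among the groups by which it was chosen. GZMA was thus higher under CHIR-99021 in both lines against the untreated group of the same name, and in CEM there is 1 untreated set to compare with. The CEM change minus the Nalm6 change was -1.87 ± 0.16 on the log2 scale, at 2 µM against 0.5 µM; of 5 genes tested for that difference 2 were called, beside 1.17% of all genes, and nothing is read from the count because the Nalm6 contrast chose the set.

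PRF1 encodes perforin and was the gene of the set with the largest prednisolone increase in CEM. It read 0.477, 0.636 and 0.709 CPM untreated (22, 29 and 24 counts) and 2.65, 2.36 and 2.17 CPM with prednisolone (115, 94 and 76 counts), with no overlap (log2 1.97 ± 0.18). GZMA read 5.53, 6.01 and 5.56 CPM, all just below the untreated libraries (log2 -0.28 ± 0.09). GZMM stayed at 18.6, 18.8 and 16.4 CPM (0.01 ± 0.06). In this contrast 3 of 4 genes tested were called, beside 45.1% of all genes, and nothing is read from that count. In Nalm6 the 3 prednisolone libraries had 0 PRF1 counts against 4, 0 and 2 untreated, below what can be compared.

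Some genes that accompany perforin in cytotoxic lymphocytes rose in the same CEM libraries. Of 9 transcription factors of granule genes tested there 5 rose and 3 fell (median log2 0.20), and of 7 activation and storage genes 4 rose and 2 fell (0.12), beside 45.1% of all genes called. EOMES, a T-box factor of cytotoxic cells, went from 2.41 ± 0.242 to 18.5 ± 0.375 CPM (log2 2.91, edgeR adjusted p = 8.31e-15), and the related factor TBX21 from 0, 3 and 0 counts to 25, 33 and 32. KLRD1, which encodes the NK receptor chain CD94, went from 1, 1 and 0 counts to 61, 45 and 39. TBX21 and KLRD1 passed the filter on low counts only through the prednisolone libraries, so no p is given for them. EOMES, TBX21 and KLRD1 were named for the size of their change within their lists. SRGN rose from 11.9 ± 0.513 to 37.4 ± 0.758 CPM (log2 1.62, adjusted p = 2.84e-14). Of the 8 NK and cytotoxic markers 4 were tested and 2 rose; their sum was 17.0 to 19.3 CPM untreated and 21.5 to 24.1 CPM with prednisolone, FCGR3A was at 0 in both, and the part of these markers in the PRF1 difference was not tested. In parental Nalm6 TBX21 fell with prednisolone from 16, 11 and 14 counts to 2, 2 and 1 (log2 -2.72), and the second untreated set had 4, 7 and 5. The difference of its change between the lines, 7.54 ± 0.80, rests on these low counts.

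The strand of the reads mattered for PRF1. The sense strand held 531 counts over 33 libraries and the opposite strand 680, of which CEM had 1. Counted without strand, untreated CEM and the first untreated Nalm6 set gave a PRF1 difference of 0.02 ± 0.22 on the log2 scale (edgeR adjusted p = 0.952), and CEM against the second set gave 0.07 ± 0.30 (adjusted p = 0.845), so the call was lost. The prednisolone increase within CEM rests on sense reads, since the opposite strand held 0 counts in all 6 of those libraries. GZMK had 679 opposite-strand counts beside 4911 sense counts. Its levels were lower when counted without strand, at 8.72 in place of 16.7 CPM in dexamethasone-treated TLE1 KO and 0.967 in place of 1.88 CPM in the first untreated Nalm6 set, while its log2 change was 1.83 with prednisolone and 0.80 with dexamethasone in parental cells and 2.43 with prednisolone in the knockout. The cause of the lower levels was not tested. For the other 8 genes the opposite strand held at most 65 counts. Those 65 were of GZMB, which had 10 sense counts, and GZMH had 18 beside 1 sense count.

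**Figure D3:**
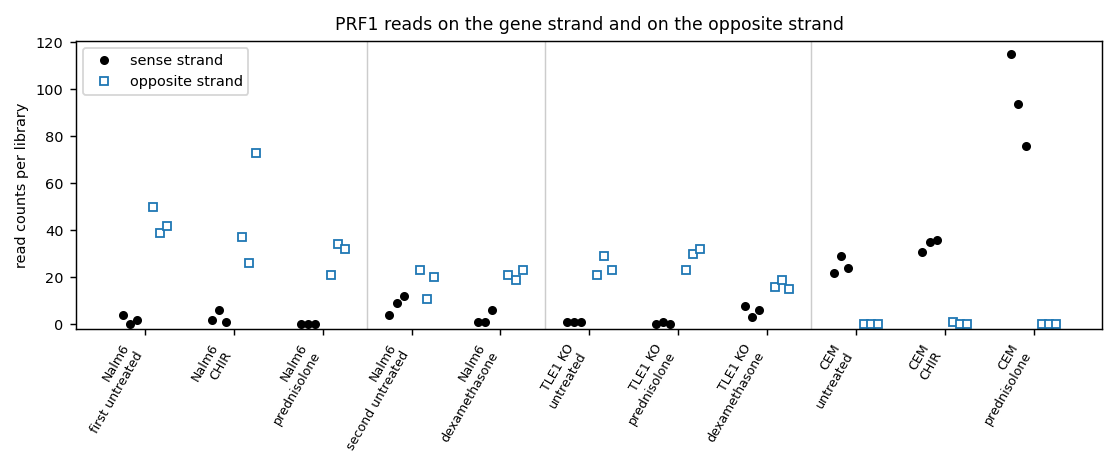
Read counts of PRF1 per library (vertical axis) on the strand of the gene (filled circles) and on the opposite strand (open squares) in the 11 groups (horizontal axis), 3 libraries each. Nalm6 and TLE1 KO libraries hold mostly opposite-strand reads and CEM libraries sense reads, with 76 to 115 of them under prednisolone.

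Genes that activate, store and release granule proteases were taken from lists, and their counts stand beside 54.8% of all genes called with prednisolone and 60.5% with dexamethasone in Nalm6. Of the 7 activation and storage genes 6 were tested in Nalm6: 4 rose and 1 fell with prednisolone (median log2 0.19, against 0.03 over all genes) and 4 rose and 1 fell with dexamethasone (0.21 against 0.02). The 1 that fell was CTSC, the activator of the whole family, from 103 ± 3.59 to 59.4 ± 2.14 CPM with prednisolone (edgeR adjusted p = 1.98e-11) and from 121 ± 6.52 to 55.4 ± 0.483 CPM with dexamethasone (adjusted p = 7.35e-11). In TLE1 KO it fell from 132 ± 14.1 to 91.3 ± 3.10 CPM (adjusted p = 2.94e-04), and in CEM from 207 ± 5.15 to 192 ± 1.74 CPM (adjusted p = 6.43e-04). SRGN rose with each glucocorticoid in parental Nalm6 (log2 0.83 and 0.42) and with prednisolone in TLE1 KO (0.77), but it also differed between the 2 untreated sets by 1.00. Against the untreated group that the titles pair with it, serglycin thus rose in every prednisolone contrast while the activator CTSC fell in each. Prednisolone-treated Nalm6 read 5.63, 6.55 and 6.84 CPM for SRGN and overlapped the second untreated set, at 8.06, 6.40 and 5.68 CPM. CTSC was lower against either set.

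Of 8 exocytosis genes 7 were tested in Nalm6; 5 rose and 1 fell with prednisolone (median log2 0.34), and 3 rose and 2 fell with dexamethasone (0.30), shares to be read against those 54.8% and 60.5%. LYST, the lysosomal trafficking regulator, rose by 2.05 and 1.97 on the log2 scale, and STX11, a syntaxin of granule fusion, rose by 1.68 with prednisolone. VAMP8, a vesicle fusion protein, fell by 1.57 with dexamethasone. In CEM 2 of 7 rose with prednisolone and 1 fell (median -0.02), with STX11 higher by 1.36.

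Of 8 inhibitors 3 were tested in Nalm6; all 3 fell with prednisolone (median log2 -0.51 against 0.03 over all genes), beside 54.8% of all genes called in either direction. With dexamethasone 1 rose and 2 fell (-0.20), beside 60.5%. SERPINB9, the inhibitor of granzyme B, went from 21.8 ± 1.42 to 17.6 ± 0.832 CPM (edgeR adjusted p = 1.06e-04) and with dexamethasone from 34.4 ± 1.30 to 20.9 ± 1.21 CPM (adjusted p = 3.96e-08). SERPINB6, an inhibitor of cathepsin G, fell by 0.51 and 0.20 on the log2 scale. All 3 inhibitors tested were also higher in the second untreated set than in the first. That median log2 difference, 0.72, was larger than the median change with either glucocorticoid. SERPINB9 with dexamethasone, at 20.9 CPM, was near its level in the first untreated set, 21.8 CPM. CST7, which encodes cystatin F, an inhibitor of CTSC, went in opposite directions with the 2 glucocorticoids, each against its own untreated set. The log2 change was -1.06 (from 0.244 to 0.117 CPM) under prednisolone and 2.08 (adjusted p = 2.74e-06, from 0.550 to 2.47 CPM) under dexamethasone. The prednisolone libraries alone would not pass the filter on low counts, so no p is given for that change. Nothing is read from the CST7 call in the prednisolone count above. The untreated sets themselves differed by 1.24, and the level with prednisolone was near the limit of detection. The inhibitor make-up differed between lines: SERPINB1, an inhibitor of neutrophil proteases, was at 45.4 ± 0.987 CPM in CEM and 0.0827 ± 0.0136 CPM in the first untreated Nalm6 set, while SERPINB6 was at 0.0612 ± 0.0506 and 6.74 ± 0.454 CPM. SERPINB9 was lower in CEM, at 6.51 ± 0.173 CPM.

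Among 11 transcription factors of granule genes, 9 were tested in Nalm6 and 3 rose and 6 fell with prednisolone (median log2 -0.52, beside 54.8% of all genes called). Of 8 tested, 2 rose and 4 fell with dexamethasone (-0.34, beside 60.5%). GFI1, a repressor known to act on ELANE in myeloid cells, rose from 45.8 ± 1.85 to 127 ± 1.61 CPM with prednisolone (edgeR adjusted p = 9.61e-15) and from 35.6 ± 0.672 to 133 ± 4.0 CPM with dexamethasone (adjusted p = 1.03e-13). It rose in TLE1 KO as well (log2 1.20), and in CEM its change was -0.02 ± 0.03. PRDM1, a repressor of lymphocyte differentiation genes, rose by 3.96, 3.56 and 2.86 on the log2 scale in the same 3 B-lineage contrasts. With CHIR-99021 none of the 9 factors tested in Nalm6 was called and 1 of 7 fell in CEM.

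Some of the lists also differed between the 2 untreated Nalm6 sets. In the second set 5 of 6 activation and storage genes, 3 of 3 inhibitors and 3 of 3 other granule proteins were higher, beside 25.8% of all genes higher, and 1 activation and storage gene was lower. Of 6 exocytosis genes 1 was higher and 2 lower (median log2 0.02), and of 9 transcription factors 2 were higher and 1 lower (0.0). LYZ, which encodes lysozyme, was higher by 1.29, CST7 by 1.24 and SRGN by 1.00 on the log2 scale, next to 3.06 for GZMA.

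**Figure D4:**
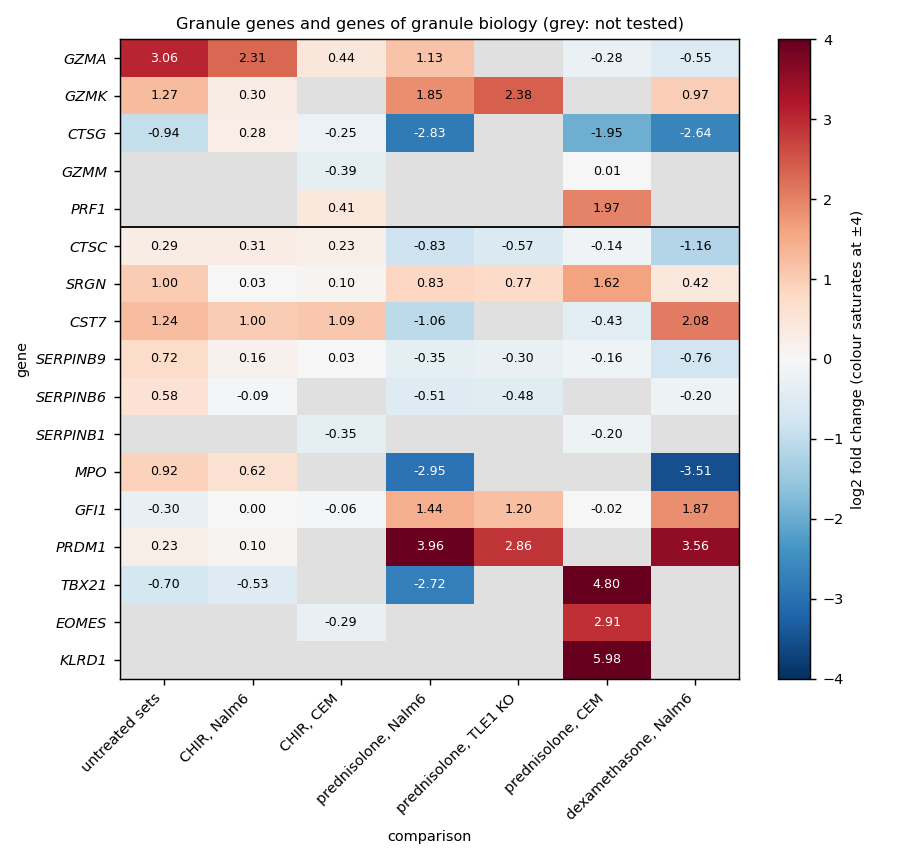
Log2 fold change (colour and number) of 5 granule genes (above the line) and 12 genes of granule biology (rows) in 7 comparisons (columns); grey cells did not pass the filter on low counts. CTSG and MPO are both near -3 under glucocorticoids in Nalm6, and PRF1, TBX21, EOMES and KLRD1 are higher with prednisolone in CEM.

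The genes whose levels followed each member most closely were found by Pearson's r of log2(CPM + 1) over the 11 group means, among 14389 genes with a symbol. For GZMA they were C2orf15 (r = 0.934), C1orf122 (0.916) and RNF208 (0.904), for GZMK RPAIN (0.963), RAG2 (0.962) and BRSK1 (0.956), and for CTSG AASDHPPT (0.975), C17orf75 (0.964) and BAG5 (0.963). RAG2 encodes a subunit of the recombinase of antigen receptor genes. For PRF1 they were FA2H (0.985), GRAMD2A (0.984) and HKDC1 (0.983); for GZMM, FOXB1, TMEM26 and GLB1L3 were at 1.0, with GZMM itself near 0 outside CEM. The Nalm6 points share their line, so they are not independent. Over 33 libraries with each line's mean removed, the closest were ALAS1 (0.853) for GZMA, BFSP2 (0.961) for GZMK, ENDOD1 (0.930) for CTSG, KRT2 (0.820) for GZMM and C9orf78 (0.927) for PRF1. No member was among another's closest, and on that scale GZMA and GZMK, neighbours on chromosome 5, correlated at 0.36, and CTSG and GZMK at -0.44.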

How the data were processed

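RNA sequencing libraries of Nalm6, TLE1 KO and CEM cells were analysed from read counts per gene, the unit the authors deposited, in the layout of STAR's gene counts. Per the submitters' processing notes, Bowtie2, DESeq2 and hg19 were used; the role of each, the versions and the filters are not given in the sources used here. Column 4, the sense-strand count, was used, as it held 12.3 to 15.3 times the total of column 3. Rows of reads in no gene (36.0% to 49.2% of a library) were left out. Gene identifiers were matched to symbols for 58652 of 62446 rows. The files use an older build than the annotation at hand, so exon lengths (GENCODE v29) serve only to scale levels and promoter windows carry their own RefSeq build.

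Each comparison was fitted on its own groups with edgeR 4.0.16 in R 4.3.3: filterByExpr, TMM factors, quasi-likelihood F test, Benjamini-Hochberg adjustment over all genes tested, calls at an adjusted p under 0.05. Standard errors came from the F statistic. CPM used the column 4 total. Ratios with few counts carry exact intervals. Median differences and counts stand in for tests of lists. On simulated counts the fit was tested with known changes. Replicates differed by more than sampling noise (chi-square per degree of freedom 1.77 to 39.0), so none were merged. Same-numbered libraries were not paired. The 10 genes and all lists were chosen with earlier results of these data known. Named genes were the 10, TLE1, the 3 closest genes by likeness, 6 fixed companions and up to 4 genes per list with a log2 change of at least 1. Alternatives were other scaling, DESeq2 1.42.0, filters, the unstranded column, a replicate block, single libraries left out and, added after seeing the data, the other untreated set as reference.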

Additional observations from a re-analysis of the deposited data

Results flagged for a closer look

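GZMA in parental Nalm6 moved in opposite directions under the 2 glucocorticoids, each against the untreated set its title pairs it with: 1.13 with prednisolone and -0.55 with dexamethasone on the log2 scale. Every prednisolone library lay above every untreated library of its set and every dexamethasone library below, and the second change minus the first was -1.68. That difference was not tested, the doses were 5 µM and 100 nM, and the untreated sets themselves differed by 3.06.

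Prednisolone was followed by lower GZMA in CEM and higher GZMA in parental Nalm6, and the drug-by-line term stood out, with a CEM change minus the Nalm6 change of -1.40. Against the other untreated Nalm6 set the Nalm6 change was -1.95.

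CTSG under CHIR-99021 was lower in CEM (-0.25) and higher in parental Nalm6 (0.28), a drug-by-line difference of -0.52. Leaving out single libraries gave -0.58 to -0.46 and took it past the threshold of 0.05 in 6 of 12 cases. No p is given for these terms, since they contain contrasts from which the genes were chosen.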

How the results depend on the processing

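With the other untreated Nalm6 set, GZMA reversed to -0.75 (CHIR-99021), -1.95 (prednisolone) and 2.53 (dexamethasone), and 3 of the 10 genes were called under CHIR-99021 in place of 1. With a minimum of 10 counts in every library, no gene of the 10 was called (0) for untreated knockout against parental cells, for prednisolone in the knockout and for dexamethasone in the knockout with the set difference removed; that filter drops the genes that were low in 1 group, and it left 2 in CEM against each untreated Nalm6 set. Without a filter 4 were called between dexamethasone-treated knockout and parental cells, 4 for CHIR-99021 in CEM and 1 for dexamethasone in the knockout with the set difference removed. Leaving out single libraries gave 1 to 2 for the latter and for the CHIR-99021 difference between lines. Small differences between lines reversed, all in genes near 0 in 1 line: CTSG for prednisolone in knockout against parental cells (0.02, unstranded), PRF1 for CHIR-99021 (0.19 unstranded; -1.20 to 0.54 without single libraries), and for prednisolone GZMK (-3.86 to 1.03) and GZMM (-0.63 to 0.36).

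Without strand, PRF1 in CEM against the first untreated Nalm6 set was 0.02 in place of 4.03, and 40 mean levels moved by more than their SD, nearly all of them with the unstranded column and among them GZMK in every B-lineage group. Counts over all genes moved by over 1.5 times for CHIR-99021 in Nalm6 (1425; 2320 unfiltered, 7429 with the other set, 409 to 2708 without single libraries), for untreated knockout (4655; 2804 to 6732), for CHIR-99021 in CEM (1865; 1001 to 1948), for the prednisolone difference between knockout and parental cells (624; 981 unfiltered, 361 to 1852) and for the CHIR-99021 difference between lines (235; 418 with DESeq2, 473 unfiltered, 149 to 388). With the replicate number as a block, 51 of 52 values of the 10 genes kept call and direction. The exception was CTSG under CHIR-99021 in CEM, for which no p is given. The counts of all genes were then 925 for CHIR-99021 in Nalm6 and 346 for the prednisolone difference between knockout and parental cells. In no comparison did every same-numbered pair correlate above 0.1 (range -0.30 to 0.26). Depth limits GZMB, GZMH, ELANE, PRTN3 and AZU1, and CTSG in the knockout, to statements about their upper limit.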

Other observations

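PRTN3 had 30 counts in replicate 2 of CEM given CHIR-99021 and 0 in the other 2 libraries of that group, a value singled out after it was seen. The same library held 3 counts of ELANE and 11 of LYZ, genes that had 0 in replicates 1 and 3, and 1 count of MPO. AZU1, next to PRTN3 on chromosome 19, had 0 or 1 count in these 3 libraries.

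PRSS57, a serine protease of neutrophil granules outside the 10 genes, was present in CEM, at 5.11, 4.33 and 5.56 CPM under CHIR-99021, and CTSW, a cysteine protease of cytotoxic cells, at 52.9, 59.3 and 56.9 CPM. NKG7, a granule membrane protein of cytotoxic cells, was at 16.1, 16.0 and 15.0 CPM in the same libraries.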
